A study of Mus musculus with 4 samples.

Results

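The genes described here encode 41 members of the nuclear receptor superfamily, chosen by name. They are not all of its genes, and values given below for the superfamily cover these 41 alone. The measurement is a list of 45855 genomic regions at which H3K9ac, the acetylation of lysine 9 of histone H3 found at active promoters and enhancers, was called different between 2 choline levels. A region was counted for a gene when 1 bp or more of it fell in the 1 kb either side of any annotated transcript start or the span of the gene in mm10. By that rule, 93 regions belonged to nuclear receptor genes, and no region was counted for 2 of them.

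The cells were HT22, a line of immortalised hippocampal neurons of the mouse, whose source name the labels spell TH22. They had been given supplemented (70 µM) or control (5 µM) choline chloride for 48 h. Both groups were kept in high-glucose Dulbecco's medium with fetal bovine serum, and the labels name no added receptor ligand. The 4 libraries, 2 of H3K9 ChIP DNA and 2 of input DNA, are not tied to a choline level by their labels, and the list holds no value for a single library. At most 1 ChIP library could stand for each level, so no spread between cultures was measured, and every value below is a description without a test. The 70 µM and 5 µM sides are taken from the row names of the list, which put 5 before 70, matched to the 2 tracks in that order. Each region has 1 value in the authors' deposited table, named the authors' score here: it ranged from 3.08 to 44.48 over the list with a median of 6.64, and it ranks regions without giving a level of H3K9ac. Regions alike at both levels are not listed, so a gene without a region may still carry the mark. Of 16 genes typical of hippocampal neurons, 3 had a region at a start (Rbfox3, Syn1 and Dlg4; 18.8%, beside 39.5% of all protein-coding genes) and 10 had one at a start or in the gene (beside 54.7%). For the same reason the list cannot show whether those genes are active in HT22.

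Nuclear receptors are transcription factors that bind DNA through a conserved zinc-finger domain and, in many cases, a small lipophilic ligand through a second domain. Steroid receptors bind as homodimers to inverted repeats, whereas retinoic acid, thyroid hormone, vitamin D, fatty acid and oxysterol receptors mostly pair with a retinoid X receptor on direct repeats of AGGTCA. Orphan receptors, which have no accepted hormone, often bind a single half-site. In the hippocampus the glucocorticoid and mineralocorticoid receptors read the circulating stress steroids, and the COUP-TF orphans shape the forebrain during development.

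Nuclear receptor genes as a whole carried differential regions about as often as other genes at their starts. A region within 1 kb of a start was present at 15 of 41 genes (36.6%, exact 95% binomial interval 22.1 to 53.1), and the background share among all 21938 protein-coding genes was 39.5%. Counting the gene span as well, 27 of 41 genes had a region (65.9%, 49.4 to 79.9), against 54.7% of all protein-coding genes. Another 14 genes had none. The intervals cover counting over genes only. Gene length and number of starts differed as well: the 26 members without a start-site region spanned a median of 67.4 kb with 5 starts, against 13.6 kb and 2 starts for all protein-coding genes without one. No member had fewer than 10 CpG sites per kb in the 1 kb either side of its starts. The background holds 4687 such genes, of which 3.84% had a start-site region. The part of gene length, number of starts and CpG density in the counts was not tested.

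**Figure D1:**
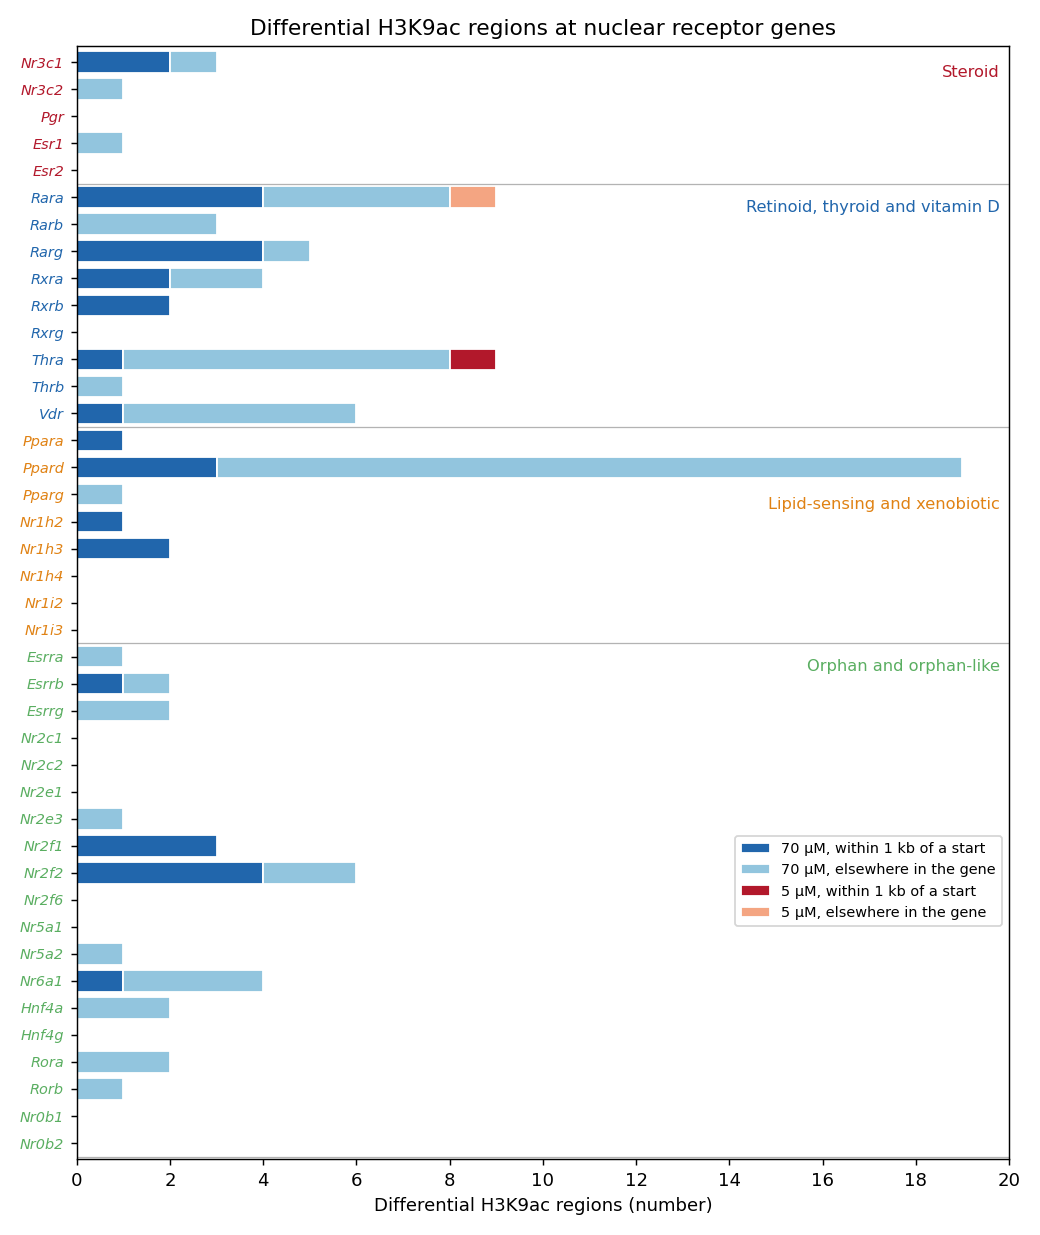
Number of differential H3K9ac regions at each of 41 nuclear receptor genes, grouped by receptor class; dark blue and light blue are 70 µM regions within 1 kb of a start and elsewhere in the gene, red and orange bars the same for 5 µM. Ppard stands out with 19 regions, Rara and Thra have 9 each, and these last are the genes with a 5 µM region.

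Of the 93 regions, 91 were called at 70 µM and 2 at 5 µM (2.15%), against 0.785% at 5 µM in the whole list. A 70 µM region lay at the starts of 15 members, beside 39.2% of all protein-coding genes, and at a start or in the span of 27, beside 54.5%. A 5 µM region lay at a start or in the span of 2 members, Thra and Rara, beside 1.39% of all protein-coding genes, and at a start of 1 member, Thra, beside 0.880%. Depth per library cannot be read from the list, and a difference in depth or enrichment cannot be told apart from the excess of 70 µM regions.

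By count, the share of genes marked at a start ranged from 1 of 5 to 6 of 9 over the classes. The retinoid, thyroid hormone and vitamin D receptors had a start-site region at 6 of 9 genes (66.7%, exact 95% interval 29.9 to 92.5). The lipid-sensing and xenobiotic receptors had one at 4 of 8 genes (exact interval 15.7% to 84.3%). The orphan and orphan-like receptors had one at 4 of 19 genes (21.1%, 6.05 to 45.6), and the steroid receptors at 1 of 5 (0.505% to 71.6%). All these intervals include the 39.5% of all protein-coding genes, and they overlap each other. The classes were chosen with earlier results of these data known, which the intervals do not allow for. The classes were not matched for number of starts. Members with a start-site region had a median of 7 starts and 8034 bp of start-site windows, against 5 starts and 4942 bp for members without one. The part of this in the class difference was not tested. With the gene span included the classes lay closer together, at 8 of 9 retinoid, thyroid and vitamin D receptors, 5 of 8 lipid-sensing, 3 of 5 steroid and 11 of 19 orphan receptors.

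**Figure D2:**
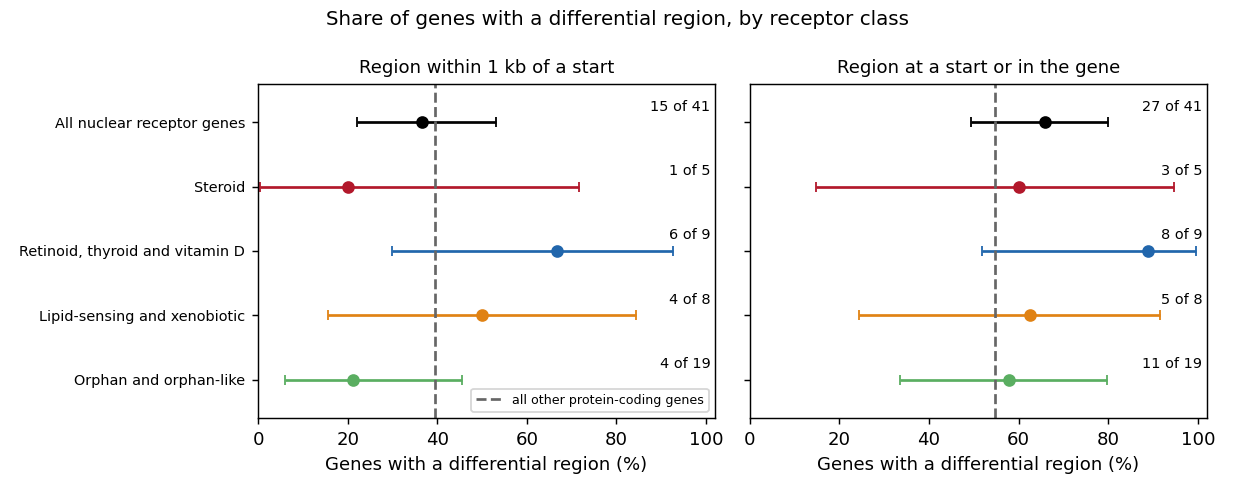
Share of genes with a differential region within 1 kb of a start (left) and at a start or in the gene (right), for all 41 nuclear receptor genes and for each class; points are shares, bars exact 95% binomial intervals, and the dashed line all other protein-coding genes (39.5% left, 54.7% right). At starts the retinoid, thyroid and vitamin D class lies highest with 6 of 9 genes and the orphan class near the steroid class with 4 of 19, with intervals that cross the dashed line.

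Chromosome moved with class. Chromosomes 11 and 15 held 37.3 regions per Mb, against 15 on the other chromosomes, and 51.9% of their protein-coding genes were marked at a start, against 38.0% elsewhere. All 5 members on these chromosomes, Thra, Rara, Rarg, Vdr and Ppara, had a start-site region, and together they carried 30 of the 93 regions. On the other chromosomes 10 of 36 members were marked (27.8%), among them 2 of 5 genes of the retinoid, thyroid and vitamin D class. The part of these 2 chromosomes in the class difference was not tested.

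Among steroid receptors, the glucocorticoid receptor gene Nr3c1, which the title of the study names, was the marked one. It had 3 regions, all at 70 µM, on chromosome 18. The one at 39486346 to 39486661 had an authors' score of 9.10 and lay in a coding exon, the one at 39488883 to 39489077 scored 5.01 and lay in untranslated sequence, and the one at 39470033 to 39470153 scored 8.13 and lay in an intron. Neither start-site region was at the 5′-most annotated start of the gene, which lay 32918 bp and 30441 bp upstream of them. All other annotated starts of the gene lay 28120 bp to 32189 bp downstream of that start. The midpoints of the start-site regions lay 729 bp and 303 bp downstream of their nearest starts, both those of coding transcripts. Nr3c2, the mineralocorticoid receptor gene that shares the ligand corticosterone, had 1 intronic region, 46186 bp from the nearest start, with an authors' score of 3.91. Esr1, the oestrogen receptor alpha gene, had 1 intronic region 47114 bp from the nearest start with a score of 12.87. The oestrogen receptor beta gene Esr2 and the progesterone receptor gene Pgr had no region.

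Over their spans more than 1 kb from a start, steroid receptor genes held 0.317 regions per 100 kb, against 2.11 over all protein-coding genes. The steroid value rests on 3 regions. On this measure the orphan class held 0.676, the retinoid, thyroid and vitamin D class 2.4 and the lipid-sensing class 4.38. Without Ppard the lipid-sensing class held 0.308. All members together held 1.28, and 0.949 without Ppard. A low value was thus not particular to steroid receptors.

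The thyroid hormone receptor alpha gene Thra was the member at which both levels met near a start. Its 5 µM region, at 98740926 to 98741063 on chromosome 11, lay 356 bp downstream of the 5′-most start in a non-coding exon of transcript Thra-204. Its authors' score of 21 was the second highest of the 33 start-site regions of the superfamily. A 70 µM region at 98741373 to 98741682, further downstream and 284 bp upstream of the start of the coding transcript Thra-201, had a score of 3.42, the lowest of the 33. The 5 µM region was 46.4% G and C and held no CpG site, whereas the 70 µM region was 58.1% G and C and held 17 CpG sites. The 5 µM region is shown whole, as the one start-site region of a nuclear receptor gene that was assigned to control choline; it has no CpG and therefore no capitals (mm10, plus strand, chr11:98740926-98741063, sequence from the RefSeq GRCm38.p6 genome).
Thra, 5 µM: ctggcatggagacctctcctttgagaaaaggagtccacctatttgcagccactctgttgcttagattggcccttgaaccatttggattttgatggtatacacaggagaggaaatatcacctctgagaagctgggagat

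Thra also had 7 intronic 70 µM regions with authors' scores from 3.53 to 16.42. The last of these, at 98768027 to 98768202, lay in the stretch where Thra overlaps the convergent gene Nr1d1, so that it could not be assigned to 1 of the 2. Thrb, which encodes the other thyroid hormone receptor, had no start-site region; its single region (score 20.95) lay in an intron 14798 bp from the nearest start, all of it in sequence masked as repeat.

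Retinoic acid receptor genes also differed among each other. Rara, the alpha receptor gene, had 8 regions at 70 µM and 1 at 5 µM. Its 4 start-site regions were at 70 µM and lay at 4 different starts: 98928658 to 98928815 (score 5.08) 918 bp downstream of the 5′-most start, 98938171 to 98938418 (3.92) at Rara-205, 98940263 to 98940524 (21.37) at Rara-206, and 98960569 to 98960754 (4.74) 249 bp downstream of the coding transcript Rara-202. The last held 17 CpG sites. The 5 µM region of Rara, at 98963829 to 98963971, was intronic, 3488 bp downstream of the Rara-202 start, with an authors' score of 3.65. The region at Rara-206 had the highest score of any start-site region of the superfamily. It is shown here and in the following sequences with CpG sites in capitals (mm10, plus strand, chr11:98940263-98940524).
Rara, 70 µM: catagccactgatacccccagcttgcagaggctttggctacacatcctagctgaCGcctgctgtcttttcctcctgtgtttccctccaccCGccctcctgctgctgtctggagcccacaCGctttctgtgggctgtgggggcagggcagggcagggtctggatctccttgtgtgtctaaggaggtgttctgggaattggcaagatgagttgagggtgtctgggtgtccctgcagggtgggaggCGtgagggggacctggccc

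This region held 4 CpG sites and, over both strands, 1 match to AGAACA, the glucocorticoid half-site. Rarg, the gamma receptor gene on chromosome 15, had 4 start-site regions at 70 µM, at 102245333 to 102245543 (score 6.36), 102252246 to 102252440 (3.65), 102256403 to 102256571 (4.21) and 102257111 to 102257305 (4.76). The last pair were at the 5′-most start, and the last held 22 CpG sites. A further region (18.22) lay in untranslated sequence near the end of the gene. Rarb, the beta receptor gene, had no start-site region; its 3 regions (scores 7.57, 16.91 and 19.01) were intronic and lay 90642 bp to 141041 bp from the nearest start, and the one closest to its end also lay in the overlapping gene Top2b.

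Thra and Rara lie near each other, with 159 kb between the end of Thra and the start of Rara. The stretch from the start of Thra to the end of Rara, 234 kb of chromosome 11, held 44 regions of the list (18.8 per 100 kb). Chromosome 11 held 3.75 per 100 kb and the genome 1.68. The ends of the stretch were set by these 2 genes, with 9 regions each, which raises its density. For the same reason it holds both 5 µM regions of the superfamily by construction. These 5 µM regions were 2 of the 28 called at 5 µM on chromosome 11. The values of Thra and Rara thus come from 1 stretch of the genome.

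Of the retinoid X receptors, the common partners, Rxra and Rxrb were marked at starts and Rxrg had no region. Rxra had start-site regions on chromosome 2 at 27677833 to 27678044 (authors' score 5.82) and 27740554 to 27740722 (17.27), neither at the 5′-most start, and 2 intronic regions (13.39 and 22.11). Rxrb had 2 start-site regions of low score on chromosome 17, at 34030690 to 34030858 (3.66) and 34031211 to 34031403 (5.00), both upstream of the gene and both also within 1 kb of a start of its divergent neighbour Slc39a7, a zinc transporter gene, so that they could not be assigned to 1 of the 2 genes. The vitamin D receptor gene Vdr had 1 start-site region with an authors' score of 19.01, in an intron 223 bp downstream of the 5′-most start, and 5 intronic regions with scores from 3.83 to 10.93. The score of 19.01 is the commonest exact value of the list, shared by 2552 regions, among them 1 of Rarb and 1 of Nr5a2. Vdr lost its mark when regions with the 2 commonest scores were left out. The Vdr region held 1 CpG site and is shown because its composition is unlike that of the CpG-rich start-site regions below (mm10, minus strand, chr15:97910342-97910472).
Vdr, 70 µM: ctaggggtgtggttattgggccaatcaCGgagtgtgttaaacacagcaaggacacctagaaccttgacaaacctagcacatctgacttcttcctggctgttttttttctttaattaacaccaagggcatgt

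**Figure D3:**
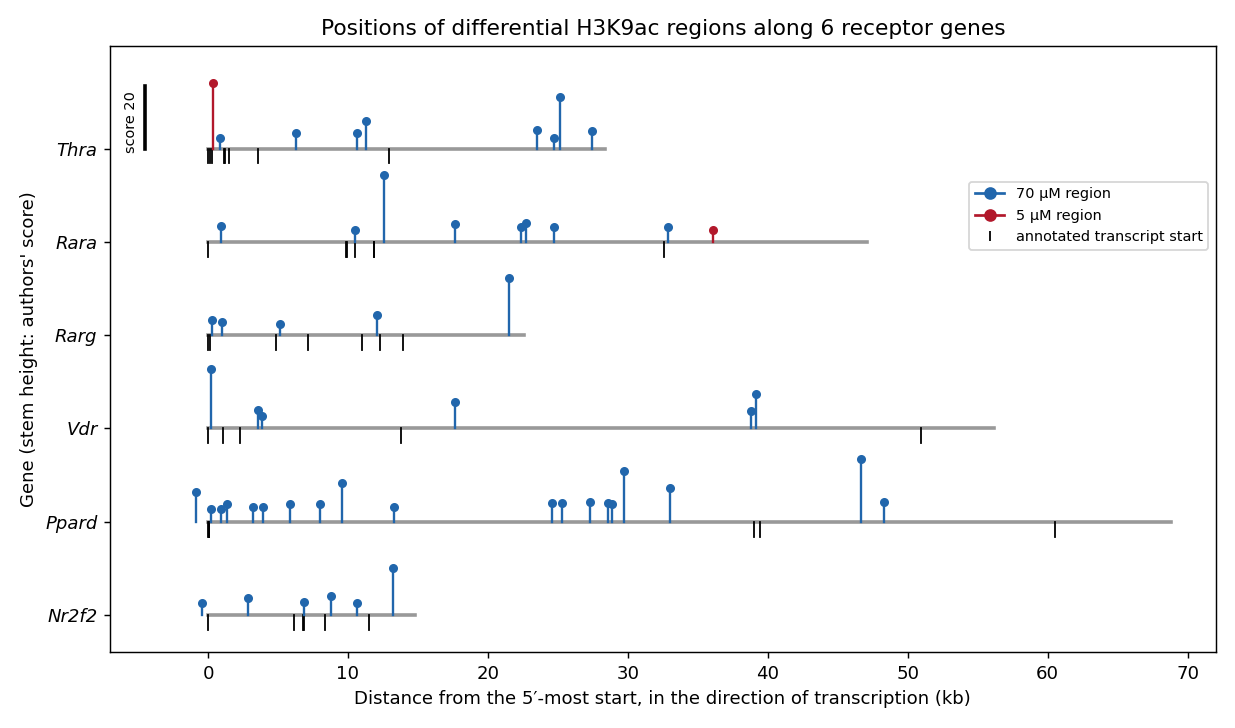
Positions of differential regions along the 6 nuclear receptor genes with 5 or more of them; the x axis is the distance from the 5′-most start in kb, grey lines are genes, black ticks annotated starts, and stem height the authors' score. Blue stems are 70 µM regions and red stems 5 µM regions. The 5 µM region of Thra stands beside its first starts with a score of 21, and Ppard shows 70 µM regions along most of its length.

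Among lipid-sensing receptors, Ppard, which encodes the broadly expressed fatty acid receptor PPAR delta, carried the most regions of the superfamily. Its 19 regions were all at 70 µM, and 57 protein-coding genes (0.260%) had as many or more. Of the 19 regions of Ppard, 3 lay at starts and 16 elsewhere in introns, which for the 16 gave 25.3 regions per 100 kb more than 1 kb from a start, against 2.11 over all protein-coding genes. By the same measure Thra was denser, with 32 per 100 kb, and Rara and Vdr held 12.5 and 10.2. The authors' scores of the 16 intronic regions ran from 4.58 to 20.06, with the highest at 28279300 to 28279489 on chromosome 17. The 3 regions at starts lay at 28231752 to 28231947 (9.47), 851 bp upstream of the gene, and at 28232764 to 28233038 (3.91) and 28233497 to 28233695 (4.12), both with their midpoint in an intron. The pair of regions nearest to the 5′-most start differ in composition: the upstream one has 2 CpG sites in 196 bp and 1 match to AGGTCA, and the downstream one has 30 CpG sites in 275 bp and no match. Of the downstream region the stretch outside untranslated sequence is shown, 174 bases with 19 CpG sites (mm10, plus strand, chr17:28231752-28231947 and chr17:28232865-28233038).
Ppard, upstream, 70 µM: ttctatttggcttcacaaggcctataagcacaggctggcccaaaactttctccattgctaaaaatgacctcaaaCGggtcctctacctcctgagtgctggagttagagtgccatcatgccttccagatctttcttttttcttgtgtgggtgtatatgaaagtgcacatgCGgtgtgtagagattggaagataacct
Ppard, downstream, 70 µM: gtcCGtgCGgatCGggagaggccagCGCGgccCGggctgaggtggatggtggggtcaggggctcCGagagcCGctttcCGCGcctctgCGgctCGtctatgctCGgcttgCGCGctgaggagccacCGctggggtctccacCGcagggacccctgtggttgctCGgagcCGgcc

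The other PPAR genes were much sparser. Ppara, the receptor that drives fatty acid oxidation in liver, had a single region with 20 CpG sites and an authors' score of 6.82, at 85735821 to 85736020 on chromosome 15, in untranslated sequence 144 bp downstream of the start of Ppara-202. Pparg, the adipocyte receptor gene, had 1 intronic region (13.76) at 41082 bp from the nearest start. Without Ppard, the lipid-sensing class held 0.308 regions per 100 kb more than 1 kb from a start, against 4.38 with it, so that 1 gene decided that value. The liver X receptors, which sense oxysterols, were both marked with low scores: Nr1h2 had 1 region at 44552447 to 44552645 on chromosome 7 (3.96), in a coding exon. Nr1h3 had 2 on chromosome 2, at 91202073 to 91202331 (3.96) and 91203112 to 91203295 (3.97), both also within 1 kb of a start of its divergent neighbour Acp2, the lysosomal acid phosphatase gene. The bile acid receptor gene Nr1h4 and the xenobiotic receptor genes Nr1i2 and Nr1i3, which act chiefly in liver and gut, had no region.

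Orphan receptor genes were mostly without a region at their starts, and 2 of the 4 marked ones were the COUP-TF genes. Nr2f1 had 3 start-site regions, all at 70 µM, in its untranslated exons on chromosome 13, at 78197744 to 78197923 (authors' score 5.89), 78199176 to 78199326 (4.14) and 78199626 to 78199885 (3.99). The one 506 bp downstream of the 5′-most start held 27 CpG sites in 151 bp, the highest density of the 93 regions. Nr2f2 had 4 start-site regions on chromosome 7, at 70356012 to 70356187 (3.8), 70357805 to 70358050 (6.08), 70359804 to 70360015 (4.12) and 70367108 to 70367239 (3.99), and 2 others (5.37 and 15.14). The third family member, Nr2f6, had no region, although its start-site windows were the CpG-richest of the superfamily, with 72.2 CpG sites per kb. The strongest start-site region of Nr2f2 lay in a coding exon, 476 bp downstream of the start of Nr2f2-205; it is shown as the strongest start-site region of the orphan class, with 16 CpG sites and 1 match to AGGTCA (mm10, minus strand, chr7:70357805-70358050).
Nr2f2, 70 µM: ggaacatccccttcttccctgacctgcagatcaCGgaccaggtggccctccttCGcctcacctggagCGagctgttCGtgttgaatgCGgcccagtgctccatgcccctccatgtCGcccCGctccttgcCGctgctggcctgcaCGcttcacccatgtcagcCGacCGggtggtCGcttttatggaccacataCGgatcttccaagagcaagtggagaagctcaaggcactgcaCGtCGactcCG

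The other 2 marked orphan genes each had 1 start-site region at 70 µM. Esrrb, which encodes an oestrogen-related receptor of stem cells, had it at an internal start, 27 bp upstream of Esrrb-205 at 86504308 to 86504456 on chromosome 12 (5.31), and a further intronic region at 20.32. Nr6a1, the germ cell nuclear factor gene, had it 206 bp upstream of the 5′-most start at 38927812 to 38927977 on chromosome 2 (4.23), with 3 intronic regions (3.98, 4.03 and 21.26). A further 7 orphan genes had regions in the gene only, all at 70 µM. Hnf4a, the hepatocyte factor gene, had 2 intronic regions with authors' scores of 24.39 and 20.23, at 8884 bp and 2280 bp from the nearest start, the first being the highest score of all 93 regions. Rora, which encodes a receptor needed in the cerebellum, had 2 (10.62 and 22.03) at 58080 bp and 82886 bp. Esrrg, an oestrogen-related receptor gene, had 2 (8.43 and 4.01) at 58203 bp and 190516 bp. A single intronic region was found in Nr5a2, the liver receptor homolog gene (19.01, 80045 bp), in Nr2e3, the photoreceptor gene (13.23, 2230 bp), and in Rorb, the retinoid-related orphan receptor beta gene (5.27, 4297 bp). Esrra, which encodes a regulator of mitochondrial genes, had 1 in a coding exon (3.60, 9127 bp). Rora and Esrrg are 734 kb and 606 kb long, so their densities more than 1 kb from a start were 0.275 and 0.332 per 100 kb. No region was found at the testicular receptor genes Nr2c1 and Nr2c2, the neural stem cell gene Nr2e1, Nr2f6, the steroidogenic factor gene Nr5a1, Hnf4g, or the genes of the corepressor-like receptors Nr0b1 and Nr0b2, which lack a DNA-binding domain of the usual kind.

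Start-site regions had lower scores than regions elsewhere in the genes, among members as in the whole list. The 33 start-site regions of the superfamily had a median authors' score of 4.74, against 5.01 for all 13376 regions at protein-coding starts. The 60 regions elsewhere in the genes had a median score of 6.22, against 8.75 for all 18881 regions of that kind. In all, 35 of the 93 regions (37.6%) reached the median score of the list. The median width was 195 bp at starts and 171 bp elsewhere, against 184 bp and 165 bp in the list. Of the 33 start-site regions, 18 were at the 5′-most start and 15 only at another annotated start. By midpoint, 14 of the 33 lay in introns, 7 in untranslated exons, 6 outside the gene, 4 in coding exons and 2 in non-coding exons, and of the 60 others 56 lay in introns.

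**Figure D4:**
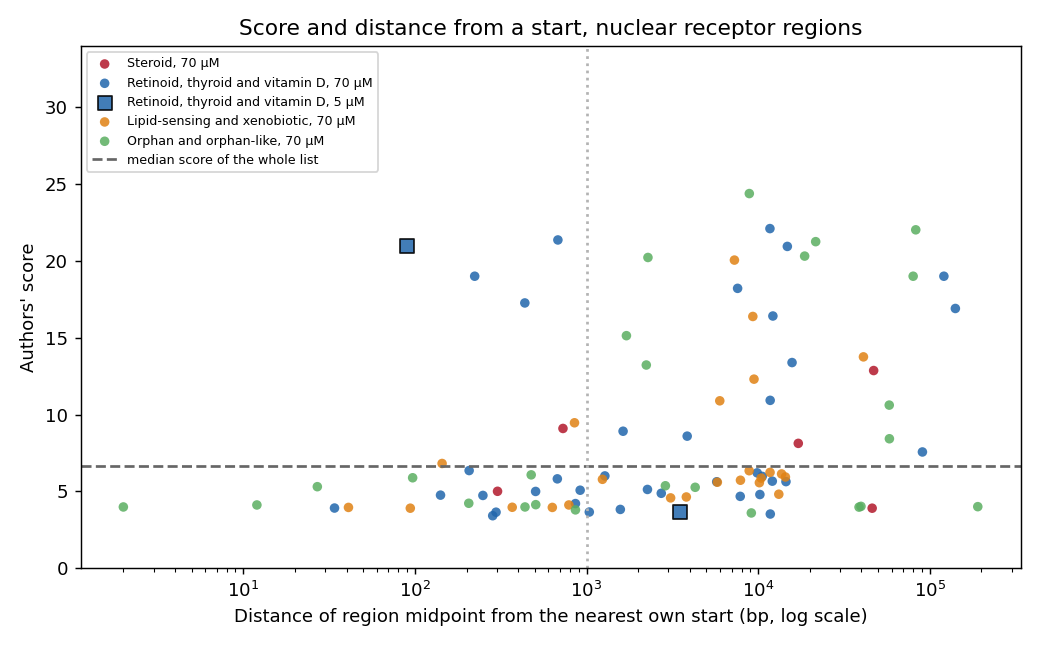
Authors' score of each of the 93 regions against the distance of its midpoint from the nearest start of its own gene (log scale); colours are receptor classes, squares are 5 µM regions, the dashed line is the median score of the whole list (6.64) and the dotted line 1 kb. Most regions inside 1 kb lie below the dashed line, with those of Rara (21.37), Thra (21), Vdr (19.01) and Rxra (17.27) well above it.

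Nearest to the 1 kb limit on the inner side, a region of Rxrb (3.66) had its edge 954 bp from a start and a region of Rara (5.08) 840 bp. On the outer side, inside their genes, regions of Ppard (5.79) and Vdr (6.01) had their midpoints 1238 bp and 1279 bp from the nearest start. The closest region outside both the windows and the gene spans lay 2056 bp from a start of Rxrb (4.01).

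In sequence, the members marked at starts had CpG-richer windows than those that were not. The windows 1 kb either side of their starts held a median of 36.7 CpG sites per kb in the 15 marked members (16.6 to 44.8) and 22.3 in the 26 unmarked members (13.0 to 72.2). Over all protein-coding genes the medians were 27.0 in 8665 marked and 15.9 in 13273 unmarked genes. With 40 or more CpG sites per kb, 2 of 8 members were marked, Nr3c1 and Rxrb, against 52.9% of all protein-coding genes in that range. Esrra, Esrrg, Nr2f6, Nr5a1, Rora and Nr0b1 were the unmarked ones. Between 30 and 40 CpG sites per kb, 6 of 9 members were marked, against 57.3% of all protein-coding genes. Between 20 and 30, 5 of 11 were marked (45.5%), against 56.3%, and between 10 and 20, 2 of 13, against 35.5%. Below 10 there was no member, and 3.84% of 4687 protein-coding genes were marked. Over all protein-coding genes the share thus lay between 52.9% and 57.3% in every band from 20 CpG sites per kb up.

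**Figure D5:**
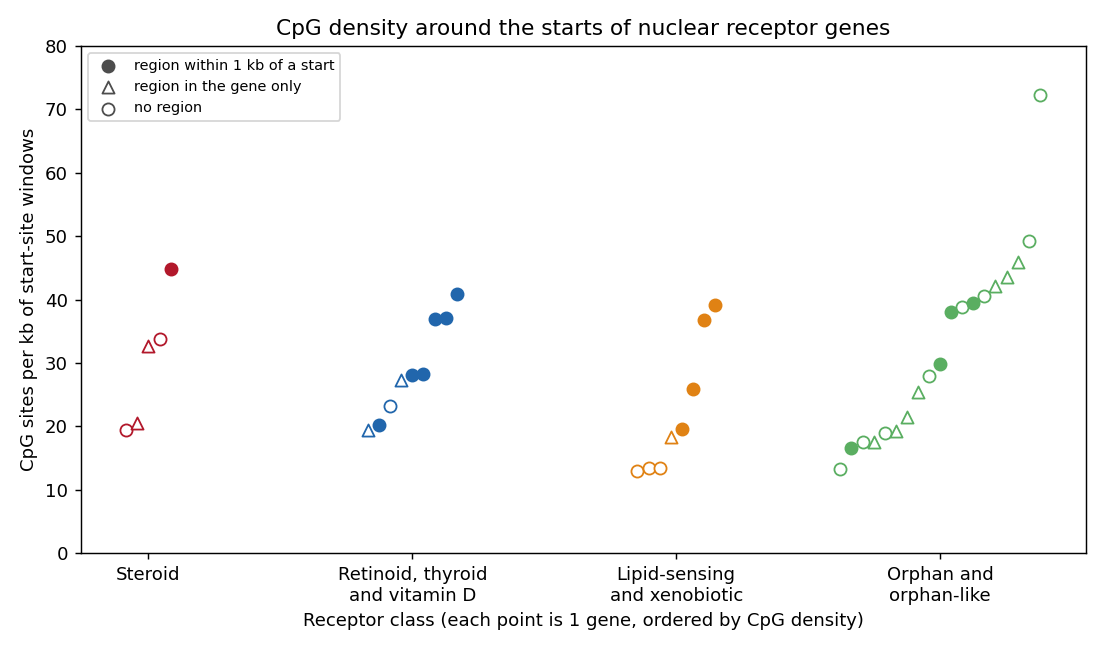
CpG sites per kb in the windows 1 kb either side of all annotated starts, 1 point per gene, by receptor class; filled circles have a differential region within 1 kb of a start, triangles only elsewhere in the gene, open circles none. In the lipid-sensing class the 4 marked genes are the CpG-richest, whereas in the orphan class the richest gene (Nr2f6, 72.2) has no region.

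The receptor binding motifs that were searched were no commoner in these regions than in the list. The half-site AGGTCA, searched on both strands, was in 9 of the 93 regions (9.68%), against 11.3% of all 45855 regions and 11.6% of regions of like width. The glucocorticoid half-site AGAACA was in 12 (12.9%), against 13.6% and 13.9%. The extended half-site, which is TCA followed by AGGTCA, was in none of the 93 and in 0.467% of the list. None held a direct repeat of AGGTCA spaced by 1 or by 4 bases, or AGAACA and its reverse complement spaced by 3 bases, and at most 0.0371% of all regions did. The longer motifs contain the half-sites, so these counts overlap. Inverted repeats of AGGTCA were not searched.

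Other genes of nuclear receptor signalling were counted in the same way. Among nuclear receptor genes outside the 41, Nr4a1, an activity-induced orphan receptor gene, had a strongest start-site score of 11.12, Nr1d1, the clock repressor gene that overlaps Thra, one of 9.10, and Nr4a2 one of 5.89, all at 70 µM. Among coregulator genes, the corepressor gene Ncor1 had a strongest start-site score of 17.80 and the acetyltransferase gene Ep300 one of 13.16, both at 70 µM. Of 27 genes that supply or clear receptor ligands, 5 were marked (18.5%), beside 39.5% of all protein-coding genes: the retinoic acid hydroxylase gene Cyp26b1 (19.01), the retinoic acid carrier gene Crabp2 (9.44) and the steroid reductase gene Srd5a1 (8.75, a 5 µM region) had the highest start-site scores, and Rdh10 and Fabp5 were the others. The 19.01 of Cyp26b1 is the commonest exact score of the list, shared by 2552 regions.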

How the data were processed

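H3K9 ChIP DNA and input DNA of HT22 cells were sequenced in 4 libraries. Per the submitters' processing notes, the tools were Bowtie 1.0.0, CASAVA 1.8 and MACS2 on the build mm10. The series' design text names callpeak for peaks over input and bdgdiff for the differences between choline levels. The deposited list gives each region 1 score, the authors' own value; in MACS2 it is a log10 likelihood ratio, but per the file headers the column has no name, and no scaling factor between libraries is stated there. Read depth is unknown, so no precision follows from it.

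Genes, starts and transcripts were taken from GENCODE M21, and sequence from RefSeq GRCm38.p6, the same assembly as mm10. Coordinates count from 1. Counting by overlap was tested on simulated data. Shares have Clopper-Pearson 95% intervals (scipy 1.17.1; sequence was read with pysam 0.24.0). The classes follow the kind of ligand. Every member is named; start-site regions are given by position, and other regions by number, score and distance or range, which is shorter than the rule first written, by which all regions of members with a start-site region were to have positions. The members, classes and lists were chosen with earlier results of these data known. Some genes of the lists of other receptors and coregulators are not reported here, and those lists are given without counts. The sequences are the strongest start-site region of each class outside chromosome 18, and, chosen after the values were seen, those of Thra, Vdr and the downstream region of Ppard. Other settings were windows of 500 and 2500 bp, higher scores, 70 µM regions alone, no commonest scores, midpoints, the 5′-most start and, added after the data were seen, no chromosomes 11 and 15.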

Additional observations from a re-analysis of the deposited data

How the results depend on the processing

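The 15 members marked at a start were the same genes with windows of 500 bp, with midpoints in place of overlap and with 70 µM regions alone. They were 36.6% of members each time, against 32.5%, 38.6% and 39.2% of all protein-coding genes in that order. With 500 bp windows the share of members thus lay above the background share, and with 1 kb windows below it. Windows of 2500 bp added Hnf4a and Nr2e3, which gave 17 (41.5%), against 46.5% of all protein-coding genes. Leaving out the 2 commonest scores removed Vdr, which left 14 (34.1%), against 38.9%. With only regions at or above the median score, 7 members were marked (17.1%), against 14.6% of all protein-coding genes, of which 2 were lipid-sensing and 0 orphan; 34 regions at 70 µM and 1 at 5 µM remained, and 1 member had a 5 µM region. With the 5′-most start alone, 11 members were marked (26.8%), against 32.5%, and 0 steroid receptors, since Nr3c1 lost its mark. Without chromosomes 11 and 15, 2 retinoid, thyroid and vitamin D receptors were marked, 0 regions at 5 µM were left and 0 members had one, since both lie on chromosome 11. The count of members with any region stayed between 20 and 27 (48.8% to 65.9%), against 36.5% to 56.3% of all protein-coding genes. No paired analysis was possible because the list holds no values per library, and no library could be left out.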

Other observations

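Among genes that supply or clear receptor ligands, 3 of 27 had a 5 µM region at a start or in the gene, beside 1.39% of all protein-coding genes; this was noticed after the values were seen and was not tested. The region of Srd5a1, which encodes a steroid reductase, was its only one (chromosome 13, 69610723 to 69610895, authors' score 8.75). Rdh10, the retinol dehydrogenase gene, had a 5 µM region (5.99) 984 bp downstream of a start, beside 4 regions at 70 µM. Fabp5, which encodes a fatty acid carrier that can hand ligand to PPAR delta, had a 5 µM region (3.98) 1565 bp downstream of its nearest start, beside 1 region at 70 µM.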
